A study of Mus musculus with 8 samples.

Results

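Retinal progenitor cells (RPCs) pass through a sequence of competence states, and a small set of transcription factors is used to mark these states in the mouse retina. The 9 factors described here were taken by gene symbol from a table of 54532 genes. The early factors are *Ikzf1*, *Foxp1* and *Foxn4*, and the late factors are *Casz1*, *Zbtb20* and the 4 nuclear factor I (NFI) genes *Nfia*, *Nfib*, *Nfic* and *Nfix*. All 9 passed the filter on low counts.

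RNA was sequenced from 4 control and 4 *Mettl3*-CKO retinal samples, 1 library per sample. *Mettl3*-CKO mice are Six3-Cre+; Mettl3 floxed/floxed. Six3-Cre acts in embryonic RPCs and loss of METTL3 was shown for the central retina, so peripheral cells of a whole retina need not carry the deletion. The labels call the other group only "Control" and give all 8 samples the age of postnatal day 7 (p7), whereas the methods text gives p6. How many mice or retinas made up a sample is not given in the sources used here, so the p-values measure the spread between these samples.

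In early RPCs, Ikaros (*Ikzf1*) supports the generation of early-born neurons, and *Foxn4* promotes amacrine and horizontal cell fates. In late RPCs, *Casz1* favours rods, and the NFI factors promote exit from the cell cycle and the formation of bipolar cells and Müller glia. METTL3 is the catalytic subunit of the complex that writes N6-methyladenosine (m6A) into mRNA, mostly at adenosines inside short motifs such as GGACT and often near stop codons.

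None of the 9 factors passed the test of *Mettl3*-CKO against control retinas with all 8 samples and the filter on low counts. *Foxn4* had the smallest adjusted p in edgeR and limma voom and *Nfia* in DESeq2. The *Foxn4* mean was 1.64-fold higher in *Mettl3*-CKO retinas, with every *Mettl3*-CKO sample above every control sample. *Nfia* and *Casz1* passed as lower, and *Foxn4* as higher, when control replicate 1 was left out. *Foxn4* also passed with no filter on low counts (log2 fold change 0.72, adjusted p = 0.000769, edgeR's quasi-likelihood test). That fit called 1330 genes higher and 819 lower. The other 6 factors did not pass under any setting tried. Because these are bulk samples, fewer cells of a type and less RNA per cell cannot be told apart.

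Total counts ranged from 16227095 to 20281517 per sample, so 3 counts, taken as the floor, equal 0.148 to 0.185 CPM, the counts scaled to library size. CPM values of single genes below are after TMM scaling, whereas summed marker values are scaled to library totals only. The test is edgeR's quasi-likelihood test, adjusted by Benjamini-Hochberg over 17998 genes and called under 0.05. Of these genes, 10.5% were called, 6.49% as higher and 4.05% as lower in *Mettl3*-CKO retinas. *Mettl3* itself ranged from 29.3 to 33.8 CPM in control and from 21.1 to 29.6 CPM in *Mettl3*-CKO retinas (log2 fold change -0.38, standard error 0.12, adjusted p = 0.0602, edgeR's quasi-likelihood test). *Mettl3* was called lower with DESeq2 (adjusted p = 0.0333) and, in edgeR, without *Mettl3*-CKO replicate 2 (-0.49, adjusted p = 0.0185), but in no other setting. Rod, progenitor, Müller glial, bipolar and amacrine marker lists each had counts in every sample, as the label retina implies. Of the 9 bipolar markers *Grm6* and *Vsx1*, and of the 9 Müller glial markers *Aqp4*, did not pass the filter on low counts. Lens markers summed to 5224 CPM in control replicate 4 and to between 6.96 and 93.3 CPM elsewhere.

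The GGACT motif was searched on the RNA strand of the longest complete coding transcript of each gene (GENCODE M21, GRCm38). Stretches of 21 bases are shown for the factors with a match within 200 bases of the last coding base and for *Nfia* and *Casz1*, which turn on control replicate 1 below. Capitals mark GGACT and all runs read 5′ to 3′.
*Foxn4*, chr5:114255300-114255320, minus strand, 3′ UTR, 184 bases after the last coding base: cttctgcaGGACTtgagacag
*Nfic*, chr10:81400936-81400956, minus strand, 3′ UTR, 111 bases after it: ccccctgcGGACTcccagctg
*Nfib*, chr4:82320503-82320523, minus strand, coding, 54 bases before it: gatatgtgGGACTaagcccaa
*Nfia*, chr4:98111479-98111499, plus strand, 3′ UTR, 257 bases after it: tactttagGGACTgtcgtaat
*Casz1*, chr4:148952235-148952255, plus strand, coding, 323 bases before it: cgcctccgGGACTcgggacgg

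A match within 200 bases of the last coding base was thus held by 3 of 9 factors, beside 39% of 17745 coding genes with a complete window. With the transcript of longest coding sequence instead, 1 of 7 factors with a complete window held a match, beside 38.9% of genes. Over the whole transcript, *Casz1* had 1.77 matches per kb, *Nfic* 1.76, *Nfix* 1.64, *Foxn4* 1.33 and *Nfib* 1.32, all above the median of 1.02 over coding genes. *Nfia* (0.735), *Zbtb20* (0.706), *Ikzf1* (0.581) and *Foxp1* (0.418) lay below that median. A match is a run of letters, and methylation was not measured in these libraries.

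Levels were compared between genes as FPKM, which divides by the deposited gene length. In control retinas, *Casz1* had the highest mean at 23.1 FPKM (range 16.0 to 26.6), next to *Nfic* at 22.5 (19.4 to 24.4). *Nfix* followed at 11.7 FPKM, *Foxn4* at 8.98 and *Nfib* at 8.04, and each of these overlapped its neighbour. Lower still were *Nfia* at 3.46, *Zbtb20* at 3.28 and *Foxp1* at 2.38 FPKM, again with overlapping ranges. *Ikzf1* was far below the rest at 0.130 FPKM (0.0453 to 0.200). No ranges overlapped at the steps from *Nfic* to *Nfix*, from *Nfib* to *Nfia* and from *Foxp1* to *Ikzf1*.

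The highest levels were thus those of the late factors *Casz1* and *Nfic*, and *Foxn4* was the only early factor above 2.74 FPKM in any control. In *Mettl3*-CKO retinas *Foxn4* came next after *Nfic* and *Casz1*, at 14.7 FPKM (11.9 to 18.6), above *Nfix* at 11.7, and its range overlapped those of *Casz1* (mean 19.2) and *Nfix*. The gene length of *Zbtb20* sums 30730 bases of exons from many transcript forms, so its FPKM is low for its counts. The transcript searched for the motif has 26901 of these bases. For *Foxp1* the lengths are 13751 and 7177 bases, for *Nfib* 14957 and 9116, and for *Casz1* 12224 and 7926. The order of the factors by FPKM therefore depends on the length used.

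**Figure D1:**
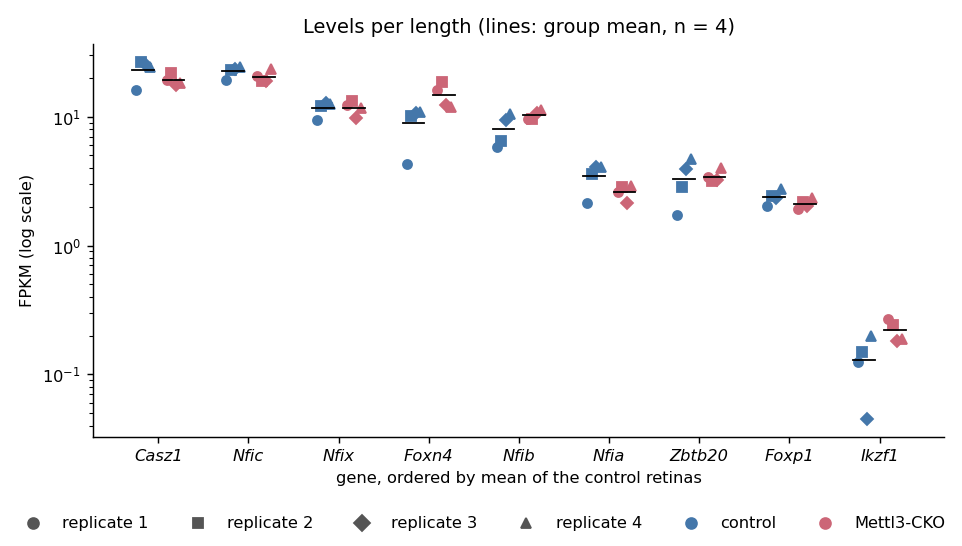
FPKM of the 9 factors on a log scale, with genes in the order of their control means. Each symbol is 1 sample (shape, replicate; colour, group) and each line the mean of 4, and *Ikzf1* lies below 0.270 FPKM in every sample while *Casz1* and *Nfic* lie above 15.9.

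*Foxn4* (ENSMUSG00000042002, chr5:114254164-114273807, minus strand, GRCm38) encodes a winged-helix factor of progenitors. Its level was 15.0, 34.2, 35.8 and 36.2 CPM in control replicates 1 to 4 and 53.8, 63.0, 41.8 and 39.8 CPM in *Mettl3*-CKO replicates 1 to 4. Control replicate 1 lay far below the other controls, which were close together, and the groups did not overlap. The means were 30.3 ± 10.2 and 49.6 ± 10.9 CPM (SD, n = 4 each). The log2 fold change was 0.71 (standard error 0.23, 95% interval 0.20 to 1.22), with an adjusted p of 0.0720 in edgeR's quasi-likelihood test. The exact permutation test on log2 CPM gave a two-sided p of 0.0286, the smallest that 4 samples against 4 allow. *Foxn4* was the only factor of 9 whose groups did not overlap, which held for 17.4% of all tested genes. No other gene of the table overlaps *Foxn4*.

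Values of other marker lists are given beside those of *Foxn4*. The 11 markers of proliferating progenitors, of which 4 were called higher and none lower, summed to between 1501 and 1959 CPM in control retinas and between 2053 and 2759 CPM in *Mettl3*-CKO retinas. Control replicate 1 had the lowest sum of all 8 samples, as it had the lowest *Foxn4*. Within the *Mettl3*-CKO group, replicates 1 and 2 had both the highest *Foxn4* and the highest sums, at 2759 and 2664 CPM. The 10 markers of progenitor identity, with 2 called higher, summed to between 1709 and 2391 CPM in control and between 2241 and 2840 CPM in *Mettl3*-CKO retinas, again lowest in control replicate 1. The 8 rod markers, of which 5 were called lower and none higher, summed to between 2496 and 3594 CPM in control and between 1277 and 2384 CPM in *Mettl3*-CKO retinas, without overlap. Their sums were lowest in *Mettl3*-CKO replicates 2 and 1, at 1277 and 1385 CPM, where *Foxn4* was highest. None of these markers was at 0 in all samples, and their part in the result was not tested.

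*Ikzf1* (ENSMUSG00000018654, chr11:11685003-11772926, plus strand), the gene of Ikaros, was near the limit of these libraries. It had 14, 14, 5 and 19 reads in control replicates 1 to 4 and 28, 24, 20 and 22 reads in *Mettl3*-CKO replicates 1 to 4. In CPM the controls were at 0.749, 0.857, 0.262 and 1.15 and the *Mettl3*-CKO samples at 1.55, 1.39, 1.06 and 1.07. Control replicate 4 overlapped the 2 lower *Mettl3*-CKO samples in CPM, and control replicate 3 was lowest. The log2 fold change was 0.76 (standard error 0.38, 95% interval -0.06 to 1.58, adjusted p = 0.243, edgeR's quasi-likelihood test; exact permutation p = 0.0857). It was 0.47 without control replicate 3, 1.03 without control replicate 4 and 1.20 without control replicates 1 and 4, not called in any of these fits.

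Ikaros is also made by leukocytes. The 9 markers of microglia and other leukocytes, none of them called, summed to between 44.6 and 145 CPM in control and between 78.8 and 118 CPM in *Mettl3*-CKO retinas. Control replicate 3 had the lowest sum, as it had the lowest *Ikzf1*, but control replicate 1 had the highest sum and an *Ikzf1* level below all *Mettl3*-CKO samples. The 6 lymphocyte markers summed to at most 0.924 CPM in any sample, and *Ms4a1*, a B cell marker, was at 0 reads in all 8. The part of leukocytes in the *Ikzf1* values was not tested.

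*Foxp1* (ENSMUSG00000030067, chr6:98925338-99522721, minus strand), a forkhead repressor, was at 28.8, 33.4, 32.1 and 37.4 CPM in control replicates and 26.3, 29.9, 28.2 and 31.9 CPM in *Mettl3*-CKO replicates 1 to 4. The groups overlapped, and the means were 32.9 ± 3.55 and 29.1 ± 2.39 CPM (SD, n = 4 each). The log2 fold change was -0.18 (standard error 0.10, 95% interval -0.40 to 0.04, adjusted p = 0.313, edgeR's quasi-likelihood test). The 3 early factors therefore did not share a sign, since *Foxn4* and *Ikzf1* were on the higher side and *Foxp1* on the lower.

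**Figure D2:**
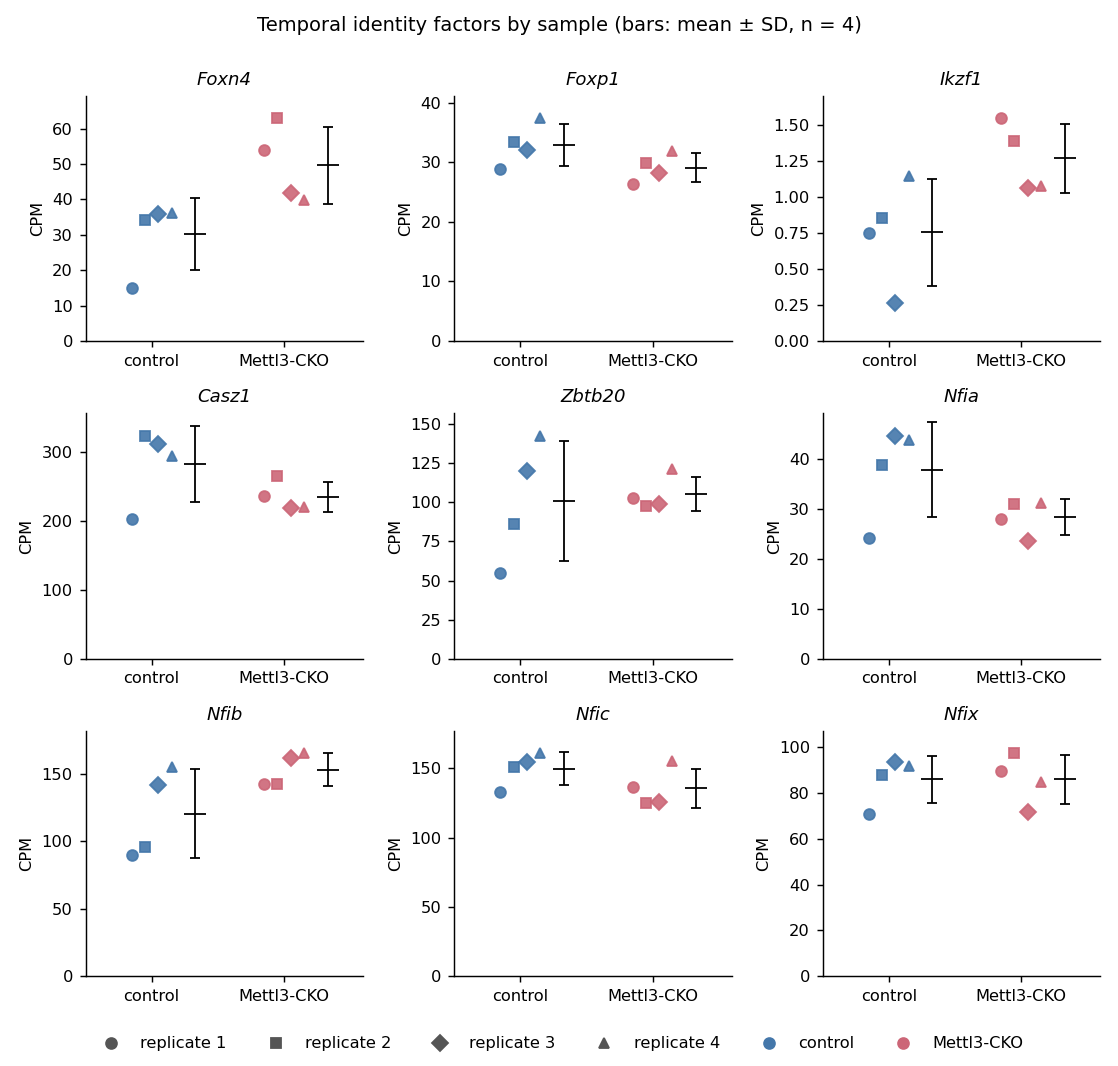
CPM of each factor in the 4 control and 4 *Mettl3*-CKO samples (symbol shape, replicate; bars, mean ± SD, n = 4). In control retinas replicate 1, drawn as a circle, is the lowest for 8 of the 9 factors, and only *Foxn4* has groups that do not overlap.

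*Casz1* (ENSMUSG00000028977, chr4:148804429-148954889, plus strand), a zinc finger factor of the mid to late period, was at 202, 323, 311 and 294 CPM in control replicates 1 to 4 and 236, 265, 219 and 220 CPM in *Mettl3*-CKO replicates 1 to 4. Control replicate 1 lay below all *Mettl3*-CKO samples and the other 3 controls above all of them. The means were 283 ± 55.1 and 235 ± 21.6 CPM (SD, n = 4 each), a log2 fold change of -0.27 (standard error 0.13, 95% interval -0.55 to 0.02, adjusted p = 0.233, edgeR's quasi-likelihood test).

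*Zbtb20* (ENSMUSG00000022708, chr16:42875881-43642602, plus strand), a BTB zinc finger repressor of neural progenitors, was at 54.7, 86.3, 120 and 143 CPM in control replicates and 103, 97.6, 99.2 and 121 CPM in *Mettl3*-CKO replicates 1 to 4. The controls spread on both sides of the *Mettl3*-CKO samples, with a coefficient of variation of 38.2% against 10.3%. The log2 fold change was 0.06 (standard error 0.22), and its 95% interval, from -0.41 to 0.54, leaves room for a difference in either direction (adjusted p = 0.906, edgeR's quasi-likelihood test).

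The 4 NFI genes encode paralogous DNA-binding proteins that act as homodimers and heterodimers. *Nfia* (ENSMUSG00000028565, chr4:97772734-98118874, plus strand) was at 24.1, 38.8, 44.6 and 43.7 CPM in control replicates and 28.0, 30.9, 23.5 and 31.2 CPM in *Mettl3*-CKO replicates 1 to 4. As for *Casz1*, control replicates 2 to 4 lay above all *Mettl3*-CKO samples, while control replicate 1 was below 3 of them. The means were 37.8 ± 9.50 and 28.4 ± 3.55 CPM (SD, n = 4 each), a log2 fold change of -0.41 (standard error 0.17, 95% interval -0.78 to -0.05, adjusted p = 0.149, edgeR's quasi-likelihood test). The unadjusted p was 0.0301 in edgeR and the exact permutation p 0.143.

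*Nfib* (ENSMUSG00000008575, chr4:82290173-82705750, minus strand) went the other way. It was at 89.7, 95.6, 142 and 155 CPM in control replicates and 143, 143, 162 and 165 CPM in *Mettl3*-CKO replicates 1 to 4. Control replicates 1 and 2 were low, and only control replicate 4 reached into the *Mettl3*-CKO range. The means were 121 ± 32.8 and 153 ± 12.2 CPM (SD, n = 4 each), a log2 fold change of 0.35 (standard error 0.16, 95% interval 0.01 to 0.69, adjusted p = 0.196, edgeR's quasi-likelihood test).

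*Nfic* (ENSMUSG00000055053, chr10:81396186-81455635, minus strand) ranged from 133 to 161 CPM in control and from 125 to 155 CPM in *Mettl3*-CKO retinas, a log2 fold change of -0.14 (95% interval -0.35 to 0.06, adjusted p = 0.392, edgeR's quasi-likelihood test). *Nfix* (ENSMUSG00000001911, chr8:84699876-84800344, minus strand) had means of 86.1 ± 10.3 and 86.0 ± 10.8 CPM (SD, n = 4 each). Its 95% interval for the log2 fold change, from -0.25 to 0.25, was centred near 0 (adjusted p = 0.994, edgeR's quasi-likelihood test).

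The make-up of the family was described by the share of each gene in the summed NFI FPKM of a sample. The sum differed between groups by less than its spread, at 45.6 ± 6.57 FPKM in control and 45.1 ± 3.31 FPKM in *Mettl3*-CKO retinas (SD, n = 4 each). The *Nfib* share was 15.8%, 14.3%, 19.1% and 20.3% in control replicates 1 to 4 and 21.3%, 21.5%, 26.0% and 22.6% in *Mettl3*-CKO replicates 1 to 4. These shares did not overlap, with means of 17.4% and 22.8%. The *Nfia* share had means of 7.48% and 5.79%, but control replicate 1, at 5.84%, lay among the *Mettl3*-CKO samples. *Nfic* held the largest share in every sample, with means of 49.5% and 45.4%, and *Nfix* held 25.6% and 26.0%. The shares were given with no test, since they sum to a fixed total.

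**Figure D3:**
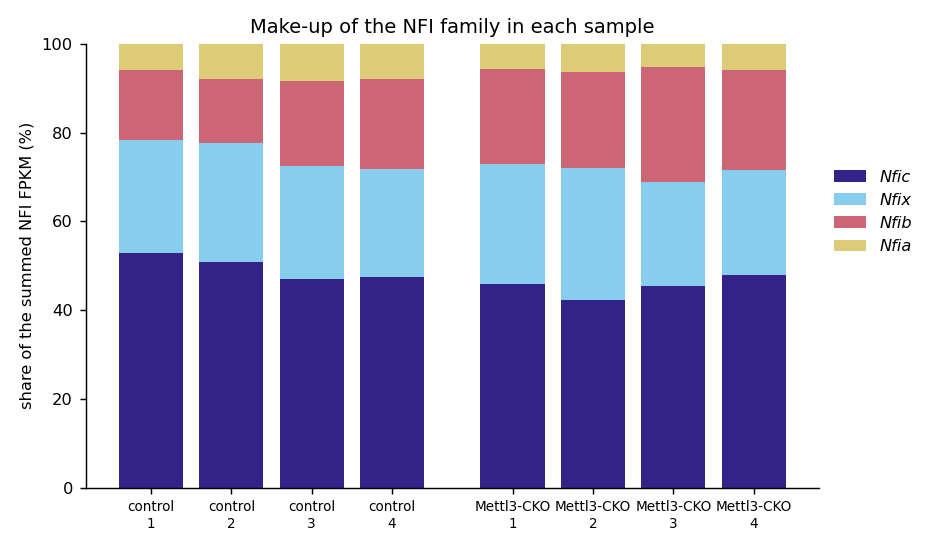
Stacked bars show the share (%) of *Nfic*, *Nfix*, *Nfib* and *Nfia* in the summed NFI FPKM of each sample. The *Nfib* band is thicker in the 4 *Mettl3*-CKO samples (21.3% to 26.0%) than in the 4 controls (14.3% to 20.3%).

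Across the 9 factors, edgeR called none, DESeq2 none and limma voom none, with smallest adjusted p-values of 0.0720 (*Foxn4*), 0.105 (*Nfia*) and 0.0691 (*Foxn4*). An unadjusted p under 0.05 was reached by 3 factors in edgeR (*Nfia*, *Nfib* and *Foxn4*), beside 24.6% of all tested genes. It was reached by 4 in DESeq2 (*Nfia*, *Nfib*, *Casz1* and *Foxn4*) and by 3 in limma voom (*Nfib*, *Ikzf1* and *Foxn4*). The share over all genes is not given here for DESeq2 and limma voom, so their counts are not read as particular to the factors. The log2 fold change was above 0 for 4 factors and below 0 for 5, and the median was -0.0015 beside -0.01 for all tested genes. The coefficient of variation was larger in control than in *Mettl3*-CKO retinas for 7 of the 9 factors, all but *Nfic* and *Nfix*. The share over all genes is not given here, so this is not read as particular to the factors. Over all genes compared, control replicate 1 differed from the other controls by a chi-square of 23.6 to 41.2 per gene. Pairs of the other controls differed by 5.01 to 14.7.

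Control replicate 1 lay apart below the other controls for *Foxn4*, *Casz1*, *Nfia*, *Nfix* and *Nfic*. For *Nfib* control replicates 1 and 2 were both low, and for *Zbtb20* the controls rose stepwise from replicate 1 to 4. Replicate 1 was the lowest of the 4 controls for 8 of the 9 factors, all but *Ikzf1*, which was the case for 36.2% of all tested genes. The same sample had the highest summed rod markers of the 8 samples, at 3594 CPM, and the highest astrocyte markers, at 208 CPM, beside the lowest progenitor markers given above. The part of these differences in the values of the factors was not tested.

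Without control replicate 1, the *Nfia* log2 fold change was -0.58 (standard error 0.10, adjusted p = 0.00186, edgeR's quasi-likelihood test). That of *Casz1* was -0.40 (standard error 0.08, adjusted p = 0.00367), so both late factors were called lower in *Mettl3*-CKO retinas. *Foxn4* was called higher, at 0.49 (standard error 0.13, adjusted p = 0.0210), with a smaller fold than with all samples. In this fit 10.3% of all tested genes were called higher and 7.07% lower, beside 1 and 2 of the 9 factors. The values of *Nfia*, *Casz1*, *Foxp1* and *Foxn4* in control replicates 2 to 4 did not overlap the *Mettl3*-CKO values, 4 of 9 factors beside 28.2% of all tested genes. Leaving out any of the other 7 samples called no factor. With control replicate 4, the one with lens transcripts, left out as well, *Nfia* (-0.56, adjusted p = 0.0132) and *Casz1* (-0.44, adjusted p = 0.0116) were still called lower, and *Foxn4* (0.50, adjusted p = 0.0610) was not called. That fit called 6.25% of all tested genes higher and 3.63% lower.

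**Figure D4:**
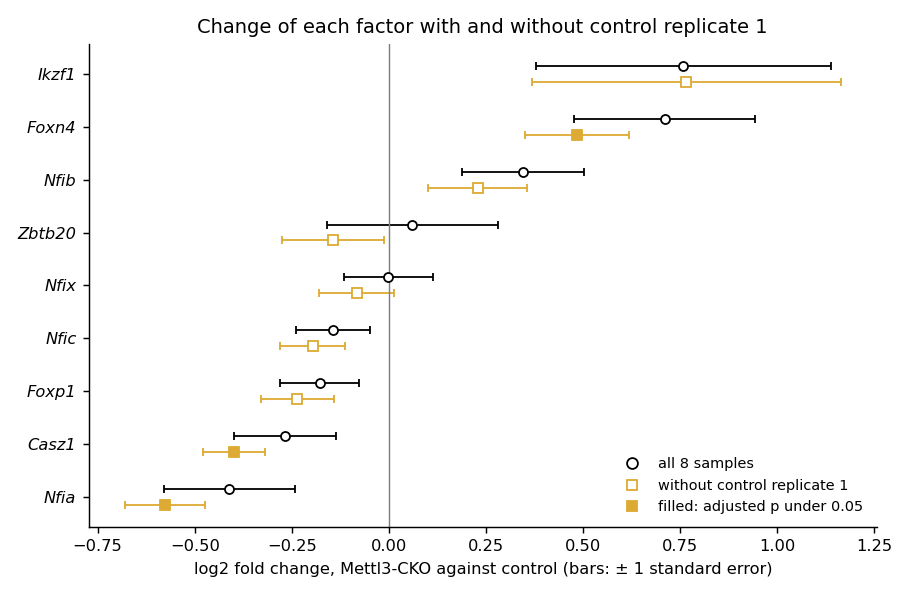
Log2 fold change of each factor in *Mettl3*-CKO against control retinas (bars, ± 1 standard error) with all 8 samples (circles) and without control replicate 1 (squares), where filled symbols mark an adjusted p under 0.05. No circle is filled, while *Nfia* at -0.58, *Casz1* at -0.40 and *Foxn4* at 0.49 are filled squares.

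Early-stage genes other than the 9 factors were examined as a list of 9, all tested, that mark early progenitors or early-born neurons. *Atoh7*, *Pou2f2*, *Fgf15* and *Onecut2* were called higher in *Mettl3*-CKO retinas and none lower, with a list median of 0.17 on the log2 scale. *Atoh7*, which confers competence for retinal ganglion cells, was at 9.04 to 12.7 CPM in control and 24.9 to 44.5 CPM in *Mettl3*-CKO retinas (log2 fold change 1.57, standard error 0.18, adjusted p = 0.000434, edgeR's quasi-likelihood test). *Pou2f2*, a POU factor of early RPCs, rose from 17.5 ± 3.95 to 40.8 ± 8.01 CPM (SD, n = 4 each; log2 fold change 1.22, adjusted p = 0.00117). *Fgf15*, a growth factor of dividing RPCs, rose from 14.3 ± 4.41 to 30.3 ± 4.95 CPM (SD, n = 4 each; log2 fold change 1.08, adjusted p = 0.00612). These 3 were called in all 8 fits that left out a sample. *Onecut2*, a factor of horizontal and ganglion cell fates, had a log2 fold change of 0.58 (adjusted p = 0.0383). Among the same 8 fits, it was called only without control replicate 1 or without control replicate 4. *Onecut1* (0.13), *Pou2f1* (0.17), *Sfrp2* (-0.11), *Dlx1* (-0.28) and *Dlx2* (-0.23) were not called.

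The heterochronic list held 10 genes of the Lin28 pathway and its relatives. *Igf2bp1*, an RNA-binding protein also known to bind m6A, was the only gene called, from 28.2 ± 7.67 to 46.9 ± 11.3 CPM (SD, n = 4 each; log2 fold change 0.73, standard error 0.21, adjusted p = 0.0390, edgeR's quasi-likelihood test). The call was lost without *Mettl3*-CKO replicate 1 or 2 or control replicate 2 or 3, with log2 fold changes between 0.56 and 0.84 over all 8 such fits. It was also lost with a replicate block (adjusted p = 0.0735). *Lin28b* (0.42, adjusted p = 0.134), whose groups did not overlap, *Trim71* (0.49, adjusted p = 0.102) and *Igf2bp3* (0.27, adjusted p = 0.197) were not called. The list median was 0.06.

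*Igf2bp1* was also among the 2 genes whose pattern over the 8 samples lay closest to *Foxn4*, by root-mean-square distance of log2 CPM centred on the control mean, out of 14316 candidates. The distance was 0.122 for *Ptpru*, a receptor tyrosine phosphatase (log2 fold change 0.57, adjusted p = 0.186), and 0.123 for *Igf2bp1*. *Igf2bp1* was lowest in control replicate 1 at 17.1 CPM. It was highest in *Mettl3*-CKO replicates 1 and 2 at 55.6 and 57.8 CPM, the order seen for *Foxn4*. The gene was picked for its small distance to *Foxn4*, so the shared order is no separate result.

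Of 9 genes reported downstream of *Foxn4* in retinal fate choice, *Neurod4* was called higher and *Neurod1* lower, with a list median of -0.03. *Neurod4*, a proneural factor of amacrine and bipolar cells, had a log2 fold change of 0.42 (adjusted p = 0.0467, edgeR's quasi-likelihood test). Among the 8 fits that left out a sample, it was called only without *Mettl3*-CKO replicate 2 or without control replicate 1. *Neurod1*, a factor of photoreceptors and amacrine cells, fell from 635 ± 14.7 to 498 ± 28.5 CPM (SD, n = 4 each; log2 fold change -0.35, adjusted p = 0.0148) and lost its call without *Mettl3*-CKO replicate 1. The rod markers given above were also lower in *Mettl3*-CKO retinas, 5 of 8 by the test, and their part in the *Neurod1* value was not tested. *Ptf1a*, the amacrine and horizontal cell determinant, had a log2 fold change of 0.26 (adjusted p = 0.512), and *Prox1*, *Lhx1* and *Dll4* were not called either.

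Of 8 tested relatives of the Ikaros, Foxp and Foxn families, *Foxn3*, a forkhead repressor, was the only one called. It rose from 109 ± 5.65 to 159 ± 12.5 CPM (SD, n = 4 each; log2 fold change 0.54, standard error 0.08, adjusted p = 0.00224, edgeR's quasi-likelihood test) and stayed called in all 8 fits that left out a sample. *Foxn1* and *Ikzf3* did not pass the filter on low counts. The NuRD chromatin complex, a partner of Casz1 and Ikaros proteins, had 13 subunits tested and *Mta2* called lower (-0.26, adjusted p = 0.0375). The *Mta2* call held without control replicate 1 and without *Mettl3*-CKO replicate 2, and was lost in the other 6 fits. It was also lost with a replicate block (adjusted p = 0.0614), with no filter on low counts (0.134) and without control replicates 1 and 4 (0.0703).

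Of 10 tested glial genes linked to NFI factors, *Gfap*, *Aldoc* and *Mmd2* were called lower and none higher, with a list median of -0.41. *Gfap*, the intermediate filament of astrocytes and reactive Müller glia, was at 61.5, 25.0, 20.6 and 26.6 CPM in control replicates and 19.3, 8.23, 13.5 and 12.9 CPM in *Mettl3*-CKO replicates 1 to 4 (log2 fold change -1.31, adjusted p = 0.0230, edgeR's quasi-likelihood test). *Aldoc*, a glycolytic enzyme of astrocytes, fell from 34.9 ± 13.0 to 15.7 ± 3.89 CPM (SD, n = 4 each; log2 fold change -1.15, adjusted p = 0.00913). *Mmd2* had a log2 fold change of -0.78 (adjusted p = 0.0419). For all 3 genes control replicate 1 was the highest sample, where it was the lowest control for *Nfia*, and they were still called without it. Their log2 fold changes were then -0.83 for *Gfap*, -0.86 for *Aldoc* and -0.44 for *Mmd2*. *Aldoc* was called in all 8 fits that left out a sample. *Gfap* was lost without *Mettl3*-CKO replicate 2, 3 or 4, and *Mmd2* without any single *Mettl3*-CKO replicate, without control replicate 2, or with limma voom (adjusted p = 0.0667).

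The 5 astrocyte markers, which include *Gfap* and of which 2 were called lower, summed to between 94.8 and 208 CPM in control and between 54.5 and 84.3 CPM in *Mettl3*-CKO retinas. Astrocytes enter the retina from the optic nerve and do not descend from RPCs. The 9 Müller glial markers summed to between 1873 and 2200 CPM in control and 1955 and 2066 CPM in *Mettl3*-CKO retinas, with 1 called higher and 1 lower. Markers of other cell types were also called lower, at 6 of 7 for endothelium and 2 of 4 tested for pericytes, where 1 was called higher. The summed endothelial markers overlapped between groups. The part of astrocytes or of these other cells in the 3 calls was not tested.

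**Figure D5:**
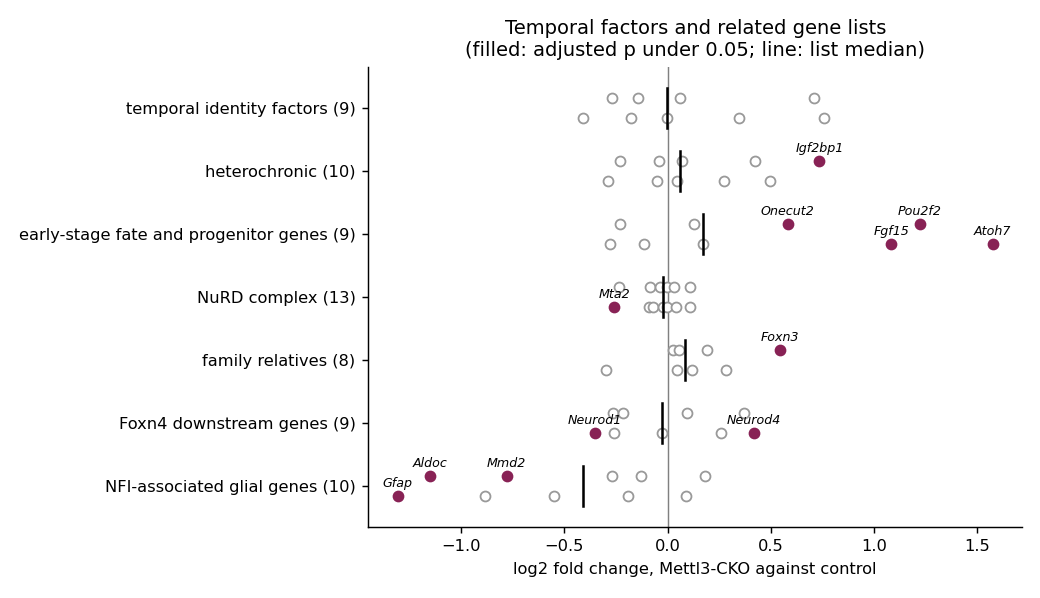
Log2 fold changes (*Mettl3*-CKO against control) of the 9 temporal identity factors and the tested genes of 6 related lists, with the number tested in parentheses. Filled points passed an adjusted p under 0.05 and lines mark list medians, and the early-stage list holds the 4 called genes *Atoh7*, *Pou2f2*, *Fgf15* and *Onecut2*, while the factors hold none.

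Genes that overlap a factor could share its reads, since the counting of overlaps and strand was not given in the sources used here. At most 2.18% of a factor's exon bases were shared with another gene of the table. *E130114P18Rik*, on the opposite strand, shares 4 exon bases with *Nfia*.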

How the data were processed

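According to the methods and the processing notes, the authors filtered paired-end reads, mapped them to GRCm38 (mm10) with HISAT2 and counted reads per gene with featureCounts. The deposited values are raw counts, not normalized, for 8 samples, and all columns were used. The annotation release, strand setting and handling of overlaps were not given in the sources used here. The members and gene lists were chosen with earlier results of these data known.

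Genes were kept by filterByExpr, leaving 17998 of 54532, and scaled by TMM in edgeR 4.0.16 (R 4.3.3). They were tested with the quasi-likelihood test, without covariates, adjusted by Benjamini-Hochberg and called under 0.05. A standard error is the absolute log2 fold change divided by the square root of F. Exact permutation tests used log2 CPM (prior count 2) over 70 label assignments. FPKM was computed from the counts, the deposited gene lengths and library totals. DESeq2 1.42.0 and limma 3.58.1 (voom) were alternatives, with other scalings, filters and sample sets. Leaving out control replicates 1 and 4 together, and the transcript choice for the motif search, were decided after seeing the data. Floors for single values cover counting error only. Intervals for log2 fold changes were built from the standard error of the quasi-likelihood test, so they include the spread between samples.

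Named genes are the 9 factors, *Mettl3*, genes of 6 lists, marker genes beside a factor, overlapping genes, and the 2 genes nearest in pattern to the factor of smallest p. The fits were tested on simulated data. Replicates were compared by chi-square, and no pair agreed within sampling noise (lowest 5.01 per gene). Replicate numbers are shared by the groups, but same-numbered samples did not deviate together in every pair (correlations -0.11, 0.21, -0.11 and 0.25), so they were not treated as pairs. Some genes that this rule covers are not reported here. Other data types of the study were not analysed here.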

Additional observations from a re-analysis of the deposited data

Results flagged for a closer look

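*Foxn4* in control replicate 1 stood apart from the other controls, at 3.92 on the log2 CPM scale against 5.10 to 5.18, a gap that is 0.934 of the range of the group and above Dixon's 95% critical value for 4 samples. Of 18 groups examined (9 factors in 2 conditions), chance flags about 0.9.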

How the results depend on the processing

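With all samples, the count of factors called (0 higher and 0 lower) was the same with DESeq2, limma voom, RLE, upper quartile or library total scaling, a minimum of 10 counts, a threshold of 0.01 and without lens and erythrocyte genes. With no filter on low counts it was 1 higher (*Foxn4*, standard error 0.15 against 0.23 with the filter), and the cause was not tested. That fit called 1330 genes higher and 819 lower over all genes. Leaving out 1 sample at a time gave 0 to 1 higher and 0 to 2 lower, all from the fit without control replicate 1, and leaving out control replicates 1 and 4 gave 2 lower. Over all genes, 1168 higher and 729 lower became 439 and 147 at a threshold of 0.01, and 509 to 1882 higher and 185 to 1289 lower with 1 sample left out, where the fit without *Mettl3*-CKO replicate 1 gave the fewest and that without control replicate 1 the most. The sign turned for *Nfix* with library totals (0.0053) and with no filter (0.0036). With 1 sample left out, *Nfix* ran from -0.083 to 0.080 and *Zbtb20* from -0.14 to 0.27 on the log2 scale. The other 7 factors kept their sign in every setting. Adding a replicate block called none of the 9 factors, with an adjusted p of 0.0589 for *Nfib* and 0.0819 for *Foxn4* (edgeR), and 1198 genes higher and 660 lower over all genes. The samples share only these numbers. Depth limits *Ikzf1*, with 5 to 28 reads a sample.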
